A study of Mus musculus with 4 samples.

Results

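The genes described here are 10 genes of the muscle side of the neuromuscular junction, chosen by name: the acetylcholine receptor subunit genes Chrna1, Chrnb1, Chrnd, Chrng and Chrne, the receptor-clustering gene Rapsn, and the agrin pathway genes Agrn, Lrp4, Musk and Dok7. They are 10 of 51826 genes in the deposited count table, and each was found by its Ensembl identifier. RNA was sequenced from C2C12 cells, an established line of mouse myoblasts that divide in growth medium and can fuse into myotubes. Cells in growth medium received vehicle (2 libraries) or GDF10, a secreted growth factor related to the bone morphogenetic proteins, for 6 h (2 libraries). No genetic change separates the groups, the labels give no dose of GDF10, and they name no nerve cells in the cultures. The series text describes a group's libraries as biological replicates, and all come from 1 cell line.

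At the neuromuscular junction, acetylcholine released by the motor nerve opens a cation channel in the muscle membrane. That channel is a pentamer with a pair of alpha subunits and 1 each of beta, delta and either gamma, in the fetal and uninnervated form, or epsilon, in the adult form. Agrin from the nerve binds LRP4, which activates the receptor kinase MuSK with the help of the cytoplasmic adaptor DOK7, and rapsyn then holds the receptors in dense clusters. Myoblasts that exit the cell cycle switch on the receptor subunit genes through myogenic factors such as MyoD and myogenin, which bind the E-box, a short DNA motif.

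Total counts ranged from 29641165 to 35597310 per library, and 3 counts corresponded to 0.0843 to 0.101 CPM, the unit that scales a gene's counts by its library's size. No library was a copy of another: in every pair the counts differed by more than sampling noise (chi-square over degrees of freedom, 14.9 to 29.2). Myoblast markers were high: 7 of 8 were tested, Pax7 was at 0 in all 4 libraries, and the list summed to 2142 to 2146 CPM with vehicle and 2198 to 2213 CPM with GDF10. A protocol label names longissimus dorsi muscle as the source of RNA while the other labels name C2C12 cells. The mature muscle fibre list summed to 93.7 and 98.1 CPM with vehicle and 100.2 and 104.6 CPM with GDF10, most of it from Actn3 (64.9 and 68.5 CPM with vehicle, 77.2 and 73.5 with GDF10) and Ryr1 (14.6 to 20.4 CPM), and no gene of the 10 was at 0 in all 4 libraries. The defining myosin genes of that list were low, with Myh4 at 4, 0, 0 and 0 counts and Myh1 at 30 to 76. Of 8 neuron markers 5 had no count in any library (Snap25, Chat, Isl1, Mnx1 and Slc18a3), and the list summed to 3.77 to 5.91 CPM. Schwann cell genes summed to 5.45 to 6.44 CPM with Sox10 at 0, endothelial genes to 2.16 to 2.87 CPM, and immune genes to 2.58 to 3.47 CPM with Adgre1 and Cd3e at 0.

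All receptor subunit genes but Chrne were expressed in every library, and their levels with GDF10 lay close to those with vehicle. The alpha subunit gene Chrna1 stood highest, and the adult subunit gene Chrne had at most 2 counts in a library. Of the 10 genes 9 passed the filter on low counts and were tested, all but Chrne. In edgeR's quasi-likelihood test 0 of the 9 passed a Benjamini-Hochberg adjusted p of 0.05, where 0.162% of the 15467 genes tested did (0.084% higher and 0.0776% lower with GDF10), and 0 had an unadjusted p under 0.05, where 5.94% of genes did. DESeq2 and limma-voom also called 0 of the 9, with 0 at an unadjusted p under 0.05. The groups of libraries did not overlap for 4 of the 9 genes, Chrnb1 and Rapsn higher and Chrnd and Musk lower with GDF10, against 38.2% of all genes tested (18.8% higher and 19.4% lower). The median log2 fold change was −0.02 over the 9 genes and 0.003 over all genes tested.

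**Figure D1:**
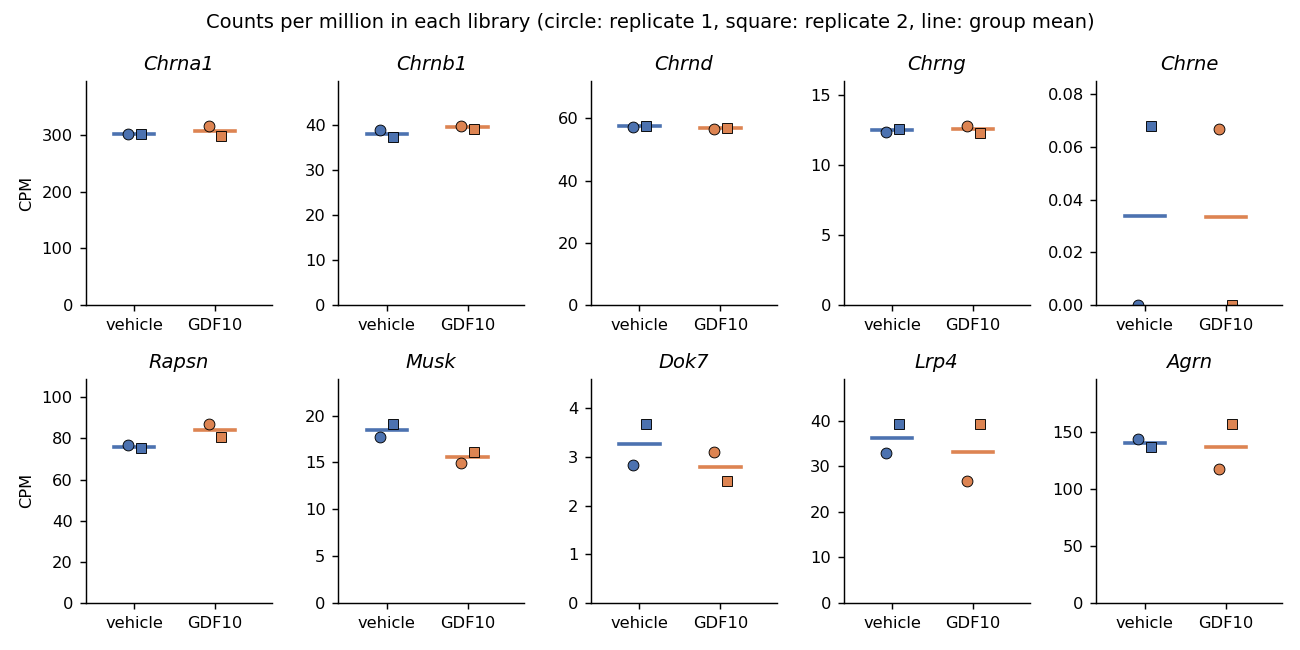
CPM (vertical axes from 0, each gene with its own scale) of the 10 genes in the 4 libraries, with circles for replicate 1, squares for replicate 2 and lines for group means. Rapsn stands somewhat higher and Musk somewhat lower in both GDF10 libraries, while Lrp4 and Agrn are lowest in GDF10 replicate 1.

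Chrna1 (ENSMUSG00000027107; mm10 chr2:73563215-73580338, minus strand) encodes the alpha subunit, which carries the main acetylcholine binding face. Its level was 302.2 and 301.6 CPM with vehicle, against 316.1 and 298.8 CPM with GDF10. The GDF10 libraries lay on either side of the vehicle libraries, so the groups overlapped. The group means were 302 ± 0.376 and 307 ± 12.3 CPM (SD, n = 2 each), a log2 fold change of 0.03 with a 95% interval of −0.14 to 0.19 (edgeR adjusted p = 0.960).

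Chrnb1 (ENSMUSG00000041189; chr11:69784036-69795943, minus strand) encodes the beta subunit. It stood at 38.7 and 37.3 CPM with vehicle and 39.7 and 39.02 CPM with GDF10. Both GDF10 values were above both vehicle values, by little: the log2 fold change was 0.05, with a 95% interval of −0.16 to 0.26 (edgeR adjusted p = 0.926).

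Chrnd (ENSMUSG00000026251; chr1:87190607-87200070, plus strand) encodes the delta subunit. It was measured at 57.4 and 57.6 CPM with vehicle and at 56.6 and 57.1 CPM with GDF10. The 4 values spanned about 1 CPM, with both GDF10 libraries just under the vehicle libraries (log2 fold change −0.02, 95% interval −0.21 to 0.18, edgeR adjusted p = 0.980).

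Chrng (ENSMUSG00000026253; chr1:87204657-87212694, plus strand) encodes the fetal gamma subunit and starts 4586 bases after the end of Chrnd, on the same strand with no annotated gene between them. Its level was 12.4 and 12.6 CPM with vehicle and 12.8 and 12.3 CPM with GDF10. The groups overlapped, and the log2 fold change was 0.01 with a 95% interval of −0.29 to 0.31 (edgeR adjusted p = 0.994). Among these 4 subunit genes the widest 95% interval of the fold was that of Chrng, 0.817 to 1.24. Such an interval does not show that the groups were equal.

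Chrne (ENSMUSG00000014609; chr11:70614883-70619216, minus strand) encodes the adult epsilon subunit. Its counts were 0 in vehicle replicate 1 and GDF10 replicate 2, and 2 in both other libraries, so the groups overlapped. The floor of 3 counts corresponds to 0.0843 CPM in vehicle replicate 1 and 0.0856 CPM in GDF10 replicate 2. For a count of 0 the exact two-sided 95% Poisson upper limits there were 0.104 and 0.105 CPM, for counting error. Genes with exactly 2 counts numbered 1422 to 1571 per library and genes with exactly 3 counts 523 to 575, so low even values were more frequent than the odd values above them. How reads were counted is not stated in the labels, and if both mates of a pair were counted, the limits and intervals given for Chrne would be too narrow. Chrne failed the filter on low counts and has no fold change or test.

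Of these subunit genes, Chrna1, Chrnb1, Chrng and Chrne each have a promoter window in the RefSeq sequences (build GRCm38.p6), and the windows of Chrna1, Chrng and Chrne are shown because they belong to the most abundant, the fetal and the near-silent subunit. Each line gives the 250 bases before the RefSeq transcription start, 5′ to 3′ on the gene's strand. Capitals mark each E-box (CANNTG, the same on both strands) and, in Chrne, the N-box (CCGGAA or TTCCGG, searched on both strands), a motif bound by Ets-family factors in synaptic genes. The windows lie at chr2:73580339-73580588 (minus), chr1:87205561-87205810 (plus) and chr11:70619195-70619444 (minus). The RefSeq start of Chrng lies inside the longer gene span that GENCODE gives.
Chrna1: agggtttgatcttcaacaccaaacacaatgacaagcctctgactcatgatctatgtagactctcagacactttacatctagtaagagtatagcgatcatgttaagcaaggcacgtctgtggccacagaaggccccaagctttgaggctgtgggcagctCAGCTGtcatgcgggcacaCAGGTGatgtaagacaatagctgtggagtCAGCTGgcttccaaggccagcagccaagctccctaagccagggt
Chrng: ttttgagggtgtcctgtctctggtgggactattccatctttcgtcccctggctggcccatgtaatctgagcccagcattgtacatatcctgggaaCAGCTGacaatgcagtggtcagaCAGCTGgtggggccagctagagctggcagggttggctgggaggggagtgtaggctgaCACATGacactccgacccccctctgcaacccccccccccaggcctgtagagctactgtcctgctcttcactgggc
Chrne: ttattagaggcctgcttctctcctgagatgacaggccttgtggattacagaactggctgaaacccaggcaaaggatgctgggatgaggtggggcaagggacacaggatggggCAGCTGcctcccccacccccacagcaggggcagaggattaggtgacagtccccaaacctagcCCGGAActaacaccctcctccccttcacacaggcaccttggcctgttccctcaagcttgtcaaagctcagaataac

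The Chrna1 window held 3 E-boxes, starting 92, 73 and 44 bases before the start, and the outer pair read CAGCTG. The Chrng window held 3 as well, at 155, 132 and 75 bases, the first pair reading CAGCTG. Chrne held 1 E-box, CAGCTG at 138 bases, and 1 N-box at 76 bases. Over 32851 promoter windows of the same length, 66.2% held at least 1 E-box, 12.2% at least 3, 4271 windows at least 1 CAGCTG, 1.26% at least a pair of CAGCTG motifs and 12.03% at least 1 N-box. CAGCTG is one of the forms that CANNTG covers, so those counts overlap. The Chrnb1 window also held 3 E-boxes, none of them CAGCTG. The windows of Dok7 held 1 and 0 E-boxes and those of Agrn 0 and 1, none of them CAGCTG. Of all 9 windows, that of Musk included, 7 held at least 1 E-box and 4 at least 1 CAGCTG. The windows printed in full do not stand for all 9, and enrichment over all promoter windows was not tested. The sequence GTCTAGAC, a palindromic SMAD binding motif, was in none of the 9 windows of the 7 matched genes and in 0.167% of all windows. A match of letters describes the window and does not show that a factor binds it.

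Levels were then compared between genes per length, in TPM, which divides the counts by the union of each gene's annotated exons and scales every library to the same sum. Chrna1 transcript stood 3.93 to 4.19 times above Chrnd, 4.42 to 4.67 times above Chrnb1 and 22.8 to 23.4 times above Chrng over the 4 libraries. Chrna1 had 204, 206, 205 and 202 TPM in vehicle 1, vehicle 2, GDF10 1 and GDF10 2. Chrnd had 51.7, 52.5, 48.9 and 51.5 TPM, and Chrnb1 45.3, 44.1, 44.6 and 45.7 TPM. The gamma gene Chrng, although it neighbours Chrnd, was 5.59 to 5.87 times lower than it per length, at 8.83, 9.05, 8.74 and 8.77 TPM. Whether the groups overlapped depended on the unit. In TPM, unlike in CPM, those of Chrnb1 overlapped, while both GDF10 values of Chrng lay below both vehicle values. The Chrna1 mean was 205 TPM with vehicle and 203 TPM with GDF10, the reverse of its order in CPM. These orders held with the longest transcript as the length, where Chrna1 was 15.2 to 15.6 times above Chrng and Chrnd 4.16 to 4.37 times above it.

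Of the summed subunit transcript per union exon length, Chrna1 made up 65.6% to 66.7%, Chrnd 15.9% to 16.8%, Chrnb1 14.1% to 14.8% and Chrng 2.85% to 2.90%. The shares depended on the length used. With the longest transcript Chrna1 made up 61.9% to 63.0%, Chrnd 16.8% to 17.7%, Chrnb1 15.7% to 16.5% and Chrng 4.02% to 4.10%. These ranges run over the 4 libraries and are not intervals for counting error. By union exon length both vehicle libraries lay between the GDF10 libraries for Chrna1. Of gamma plus epsilon transcript per length, the epsilon share was 1.31% in vehicle replicate 2 (95% exact Clopper-Pearson interval 0.160% to 4.596%) and 1.27% in GDF10 replicate 1 (0.155% to 4.46%). In vehicle replicate 1 and GDF10 replicate 2 it was 0 of 443 and 0 of 429 counts, with exact upper limits of 2.02% and 2.08% and a share of 1.65% and 1.71% at 3 counts. The intervals cover counting error only, and with 2 libraries against 2 the smallest p that an exact two-sided permutation test allows is 0.333, so the shares were not tested between groups.

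**Figure D2:**
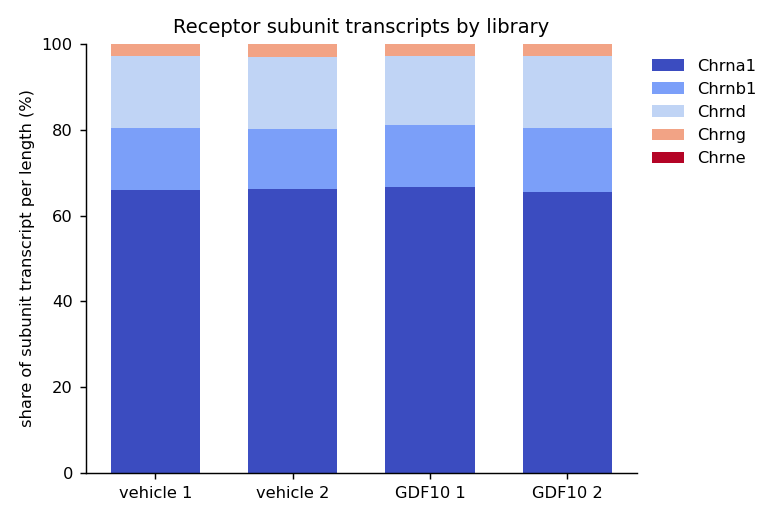
Share of each subunit gene (percent, stacked to 100) in the summed subunit transcript per union exon length, for each of the 4 libraries. Chrna1 takes 65.6% to 66.7% in every library and Chrng 2.85% to 2.90%, and Chrne is too small to see.

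Rapsn (ENSMUSG00000002104; chr2:91035620-91045729, plus strand) encodes rapsyn, the scaffold that clusters the receptor. Its level was 76.6 and 75.3 CPM with vehicle and 87.2 and 80.8 CPM with GDF10. Both GDF10 libraries were above both vehicle libraries, and this was the largest positive difference of the 9 tested genes. The means were 76.0 ± 0.899 and 84.0 ± 4.53 CPM (SD, n = 2 each), a 1.11-fold difference with a 95% interval of 0.968 to 1.26 that did not pass (log2 fold change 0.14, SE 0.08, edgeR adjusted p = 0.833). A log2 fold change at least that large in size was found in 43.1% of all genes tested. Rapsn shares 4 exon bases, 0.222% of its exon length, with the antisense transcript Gm13778, which had 23 to 26 counts per library. Per length Rapsn came after Chrna1 among the 10 genes, at 126, 125, 138 and 133 TPM, and the Rapsn to Chrna1 ratio was 0.617 and 0.608 with vehicle and 0.6715 and 0.6584 with GDF10.

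Musk (ENSMUSG00000057280; chr4:58285960-58374303, plus strand) encodes the muscle-specific receptor kinase at the centre of the pathway. It was measured at 17.7 and 19.2 CPM with vehicle and 15.0 and 16.1 CPM with GDF10. Both GDF10 libraries were below both vehicle libraries, and this was the largest difference of either sign among the 9 genes. The means were 18.5 ± 0.997 and 15.6 ± 0.807 CPM (SD, n = 2 each), a fold of 0.843 with a 95% interval of 0.694 to 1.02 (log2 fold change −0.25, SE 0.12, unadjusted p = 0.0766, edgeR adjusted p = 0.825). Of all genes tested 24.3% had a log2 fold change at least that large in size. The 250 bases before its RefSeq start (GRCm38.p6 chr4:58285712-58285961, plus strand) are shown because Musk, like the subunit genes, is activated in muscle through E-boxes. Capitals mark 3 matches to the E-box letters, at 177, 100 and 68 bases, and the last reads CAGCTG. At least 3 such matches were found in 12.2% of all promoter windows. Whether Musk is activated through these matches was not tested.
Musk: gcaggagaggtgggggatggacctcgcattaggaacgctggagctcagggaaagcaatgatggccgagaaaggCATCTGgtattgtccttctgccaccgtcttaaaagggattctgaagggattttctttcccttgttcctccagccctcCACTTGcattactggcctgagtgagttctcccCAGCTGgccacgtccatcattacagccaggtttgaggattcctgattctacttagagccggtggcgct

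Dok7 (ENSMUSG00000044716; chr5:35056766-35087839, plus strand) encodes the adaptor that activates MuSK from inside the cell. It was the lowest of the tested genes, counted 101 and 109 times with vehicle but 93 and 87 times with GDF10, or 2.83 and 3.68 CPM against 3.10 and 2.50 CPM. The groups overlapped, since GDF10 replicate 1 lay between the vehicle libraries. The log2 fold change was −0.22 with a 95% interval of −0.78 to 0.35 (edgeR adjusted p = 0.883). Without vehicle replicate 2 it was −0.02 and without vehicle replicate 1 it was −0.40, so its size rested on single libraries. Per length Musk stood 5.47 to 7.31 times above Dok7.

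Lrp4 (ENSMUSG00000027253; chr2:91457511-91513779, plus strand) encodes the agrin receptor. It stood at 32.9 and 39.4 CPM with vehicle and at 26.8 and 39.4 CPM with GDF10. GDF10 replicate 1 was the lowest library and GDF10 replicate 2 stood level with the higher vehicle library, so the groups overlapped. The log2 fold change was −0.13 with a 95% interval of −0.68 to 0.43 (edgeR adjusted p = 0.928). It was 0.13 without GDF10 replicate 1 (adjusted p = 0.991) and −0.43 without GDF10 replicate 2 (adjusted p = 0.208), in fits where the lone GDF10 library is assumed to vary like the vehicle pair. Per length Musk was 1.14 to 1.56 times Lrp4, but 0.947 to 1.295 times with the longest transcript as the length, so their order was not settled.

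Agrn (ENSMUSG00000041936; chr4:156165290-156197488, minus strand) encodes agrin. Nerve agrin differs from muscle agrin by alternative exons, and gene counts do not separate those forms. Agrn was at 143.7 and 136.3 CPM with vehicle and at 117.0 and 157.2 CPM with GDF10. The GDF10 libraries were the lowest and the highest of the 4, with an SD of 28.4 CPM against 5.23 CPM in the vehicle group. The log2 fold change was −0.03 with a 95% interval of −0.41 to 0.35 (edgeR adjusted p = 0.981), and it was 0.17 without GDF10 replicate 1 (adjusted p = 0.947) and −0.26 without GDF10 replicate 2 (adjusted p = 0.183).

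Lrp4 and Agrn have the longest exon sequence of the 10 genes, 10504 and 9285 bases, and the rest have 1690 to 4386. In GDF10 replicate 1 their log2 CPM lay 0.35 and 0.23 below the mean of the 4 libraries (deviations of −0.35 and −0.23), and in GDF10 replicate 2 it lay 0.20 and 0.19 above it. The 1661 tested genes with over 9000 exon bases had a median deviation of −0.12 in GDF10 replicate 1 and of 0.02 to 0.09 in the other libraries. Over 15431 genes the deviation had a Spearman correlation with exon length of −0.34 in GDF10 replicate 1 and of 0.09 to 0.22 in the others, as a description, since genes are not independent. The shorter Rapsn, with 1802 exon bases, deviated by 0.13 in GDF10 replicate 1, where tested genes of 1000 to 2000 bases had a median of 0.08. With the length trend of each library removed, a setting chosen after seeing the data, the log2 fold change of Lrp4 was −0.04 in place of −0.13, that of Agrn 0.05 in place of −0.03 and that of Rapsn 0.09 in place of 0.14. That of Chrnb1 was 0.01 in place of 0.05, and those of Musk and Dok7 were −0.26 and −0.22. The part of length in these differences was not tested.

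**Figure D3:**
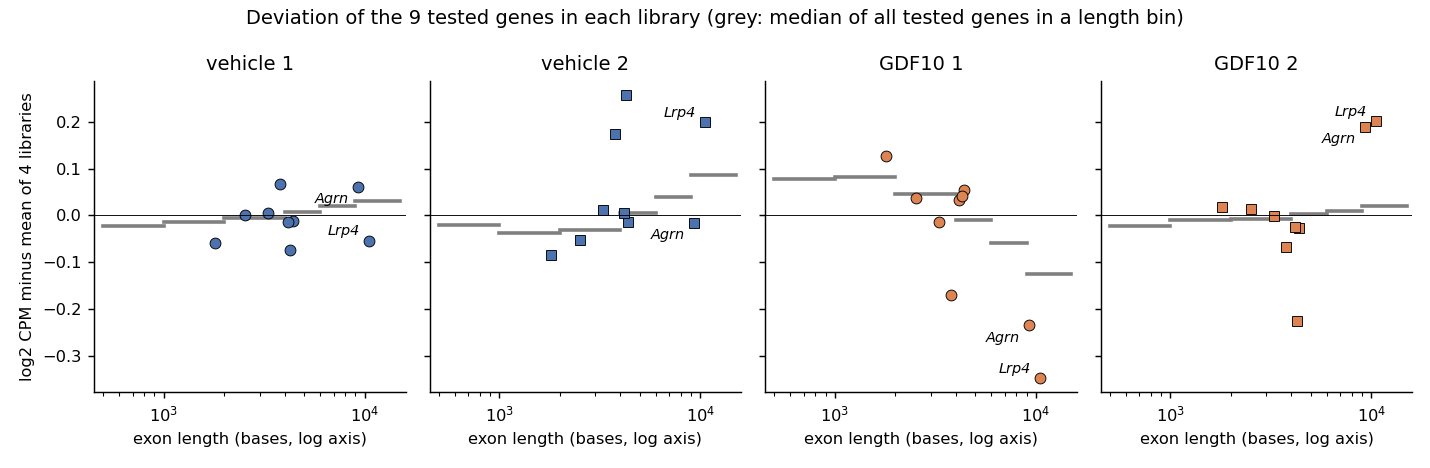
Deviation of log2 CPM from the mean of the 4 libraries (vertical) against union exon length in bases (horizontal, log axis) for the 9 tested genes, with 1 panel per library and grey bars for the median of all tested genes in a length bin. In GDF10 replicate 1 the grey bars fall with length, to −0.12 above 9000 bases, and Lrp4 and Agrn lie below them.

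Per length the 10 genes ran from Chrna1 (mean 204 TPM over 4 libraries) through Rapsn (130.5), Chrnd (51.1), Chrnb1 (44.9), Agrn (44.0), Musk (13.3), Lrp4 (9.73), Chrng (8.85) and Dok7 (2.08) to Chrne, listed at 0 in 2 of 4 libraries. Chrnb1 and Agrn, and Lrp4 and Chrng, were neighbours whose ranges over the libraries overlapped, and the other neighbours did not overlap. Lrp4 and Chrng changed places with the longest transcript as the length. The alpha subunit gene lay above 95.2% of tested genes by mean TPM, Rapsn above 91.9%, Musk above 47.6%, Chrng above 39.1% and Dok7 above 19.0%. Over the 4 libraries the coefficient of variation of TPM was 0.832% for Chrna1, 1.56% for Chrng, 1.604% for Chrnb1 and 3.09% for Chrnd, but 12.7% for Musk, 13.7% for Agrn, 17.2% for Dok7 and 19.3% for Lrp4. Rapsn, at 4.47%, lay between the subunit genes and the agrin pathway genes. Counting error, larger at lower counts, is part of these values and was not removed. Dok7 had 87 to 109 counts per library and Chrng 372 to 443, against 8928 to 10795 for Chrna1. In CPM Chrna1 spread more widely, from 298.8 to 316.1. Lrp4 and Agrn include their low levels in GDF10 replicate 1. The coefficients therefore do not rank the genes by steadiness.

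**Figure D4:**
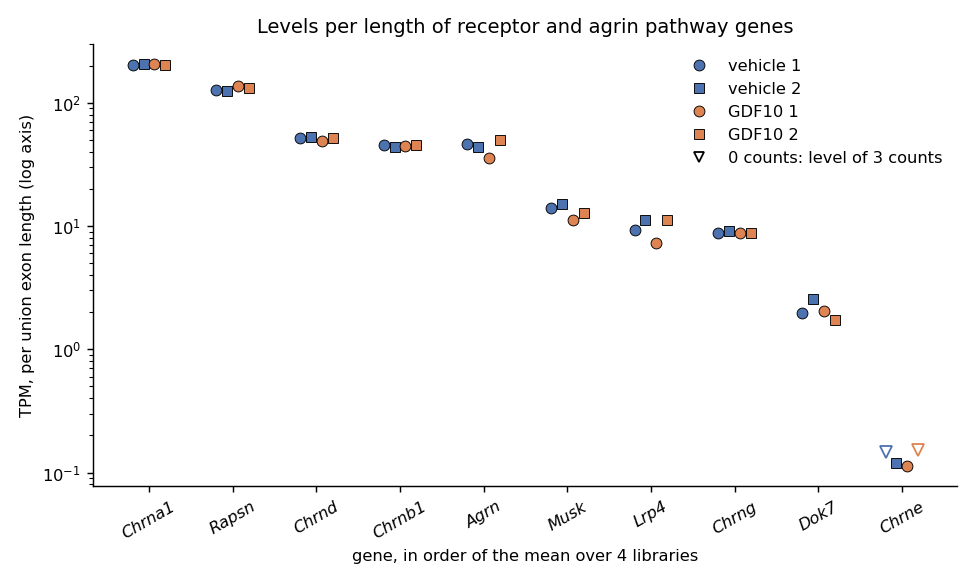
TPM per union exon length (vertical, log axis) of the 10 genes in each of the 4 libraries, in order of their mean, with open triangles for libraries with 0 counts of Chrne, drawn at the level of 3 counts. Chrna1 lies at 202 to 206 TPM and Chrng at 8.74 to 9.05 TPM.

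The rest of the pathway was read from 7 lists of related genes. In edgeR's test over all genes 0 of the 100 tested list genes passed (0.162% of all genes did), and DESeq2 and limma-voom also called 0 of them. At an unadjusted p under 0.05 there were 6 of the 100, 2 higher and 4 lower, against 5.94% of all genes tested, 378 higher and 540 lower. Of all genes tested, 7856 had a positive log2 fold change and 7611 a negative one. Of 25 genes listed for agrin signalling, 9 were positive and 16 negative with a median log2 fold change of −0.07. The lower genes by unadjusted p were 2 of the 25, the kinase gene Src at 50.8 and 52.1 against 39.2 and 45.3 CPM (−0.28, adjusted p = 0.825) and the chaperone gene Hsp90b1 at 1151 and 1154 against 1030 and 1038 CPM (−0.16, adjusted p = 0.825). Ctnnb1, which encodes beta-catenin, and the small GTPase gene Rac1 had log2 fold changes of −0.02 and 0.10.

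Among neuregulin signalling and transcription genes 23 of 26 were tested, 8 positive and 15 negative, with a median of −0.02, and 1 was higher and 2 were lower at an unadjusted p under 0.05. Myog, encoding myogenin, an activator of receptor subunit genes, stood at 23.9 and 23.8 CPM with vehicle and 35.2 and 28.9 CPM with GDF10 (log2 fold change 0.43, unadjusted p = 0.00929, adjusted p = 0.748). Id2, whose product blocks the E-protein partners of myogenic factors, stood at 35.7 and 34.9 CPM with vehicle and at 26.9 and 26.4 CPM with GDF10 (log2 fold change −0.41, unadjusted p = 0.00303, adjusted p = 0.546). The other lower gene, named after its values were seen, was Gabpa, which encodes the N-box binding Ets factor GABP alpha (log2 fold change −0.19, unadjusted p = 0.0471, adjusted p = 0.825). None of these differences passed over all genes. Beside them, the 4 subunit genes tested had log2 fold changes of −0.02 to 0.05. Tcf3, Mef2d and Hdac5, the genes of that list with the highest mean CPM, had log2 fold changes of 0.06, −0.02 and 0.03.

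Postsynaptic scaffold genes (22 of 24 tested) had a median log2 fold change of −0.04, with 9 positive and 13 negative and 0 at an unadjusted p under 0.05. The most abundant were the cytoskeletal genes Plec (−0.12) and Nes (−0.19) and the integrin gene Itgb1 (−0.10). Those of lowest p were the linker gene Macf1 (−0.28) and the sarcoglycan gene Sgca (0.35). Genes of the synaptic basal lamina and of acetylcholine breakdown (16 of 20 tested) had a median of −0.10, 6 positive and 10 negative. Among them were the perlecan gene Hspg2 at −0.16, the nidogen gene Nid1 at −0.19 and the laminin genes Lamb1 at −0.13 and Lama2 at −0.22. Each negative gene named so far in this paragraph was lowest in GDF10 replicate 1. Plec, Macf1 and Hspg2, with 18113, 31402 and 14307 exon bases, stood there at 735, 244 and 561 CPM. In GDF10 replicate 2 they stood at 1110, 313 and 926 CPM. The part of length in these differences was not tested. Glycosylation genes of congenital myasthenia had a median of 0.07 over 5, with Gfpt1 at −0.06, Alg2 at 0.02, Dpagt1 at 0.13 and Gmppb at 0.08.

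Of 10 genes that help receptors fold or assemble, 8 were tested with a median log2 fold change of −0.02, 4 positive and 4 negative, and the neuronal receptor chaperone genes Ric3 and Tmem35a had 0 counts in all 4 libraries. The endoplasmic reticulum chaperone genes Calr, Pdia3 and Canx had log2 fold changes of 0.10, 0.02 and −0.14, and Ly6e, which encodes a GPI-anchored surface protein, had one of 0.24 (unadjusted p = 0.0208, adjusted p = 0.815). Of 16 other acetylcholine receptor genes, neuronal and muscarinic, 9 had 0 counts in all libraries and 6 had at most 5 counts in a library. Chrnb2, which encodes a neuronal beta subunit, was the single one tested, at 3.64 and 3.51 CPM with vehicle and 2.97 and 3.87 CPM with GDF10 (log2 fold change −0.06, adjusted p = 0.969).

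**Figure D5:**
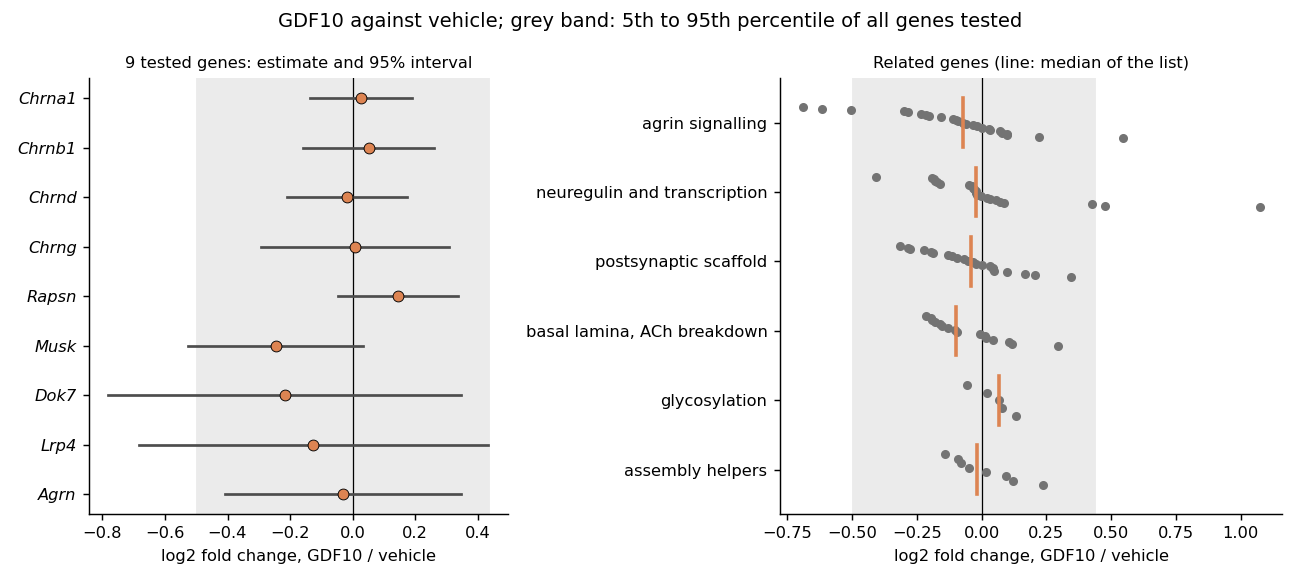
Left, log2 fold change of GDF10 against vehicle with its 95% interval for the 9 tested genes, and right, the log2 fold change of each tested gene in 6 lists of related genes (grey points), with the list median as an orange line. Grey bands run from the 5th to the 95th percentile of all genes tested, −0.50 to 0.44, and every interval of the 9 genes includes 0.

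The list counts moved when a GDF10 library was left out, as did the calls over all genes. These fits compare a single GDF10 library with the vehicle pair, whose spread it is assumed to share, so a call can reflect that library alone. Without GDF10 replicate 1, 2 of 100 list genes passed, against 112 of 16312 genes (0.687%): the adaptor gene Grb2 (log2 fold change 0.94) and Mef2a (0.96). Without GDF10 replicate 2, 6 of 100 passed, against 224 of 15980 genes (1.40%), and all were lower: the kinase genes Abl1 (−2.31) and Abl2 (−0.47), Apc (−0.99), Col4a1 (−0.63), Tcf4 (−0.74) and Macf1 (−0.46). Apart from Macf1, these were named after their values were seen. Abl1, whose kinase acts downstream of MuSK, stood at 147 and 156 CPM with vehicle but at 30.5 and 157 CPM in GDF10 replicates 1 and 2, so the groups differed through 1 library.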

How the data were processed

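RNA sequencing counts were used from 4 libraries of C2C12 cells. The deposited table holds whole-number counts per Ensembl gene, not normalized. Per the submitters' processing notes, which give no order, the authors used build mm10 with StringTie 1.3.3b, HISAT2 2.0, DESeq2 1.12.4, Trimmomatic 0.36, FastQC 0.11.2 and bedtools 2.26.0. No label names the counting tool, its annotation or its strand setting, so reads of overlapping genes cannot be told apart. The count columns headed Con were taken as vehicle, the sole group beside GDF10. GENCODE M21 gave symbols, positions and exon lengths for 51633 of 51826 identifiers. Promoter windows came from RefSeq on GRCm38.p6 for 7 of the 10 genes.

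Groups were compared in R 4.3.3 with edgeR 4.0.16 (filterByExpr, TMM scaling, robust dispersions, glmQLFit and glmQLFTest), on all genes, with Benjamini-Hochberg adjustment over the 15467 tested and a threshold of 0.05. Standard errors and 95% intervals were derived from each log2 fold change with its F value. CPM used TMM-scaled library sizes, TPM the union exon length, and deviations log2 of CPM plus 0.5. The p-values reflect no spread beyond that of the 4 libraries. Alternatives were DESeq2 1.42.0, limma-voom (limma 3.58.1), other scaling and filters, non-robust dispersions, a replicate block, each library left out, longest transcript lengths and, chosen after seeing the data, removal of each library's exon length trend (loess, span 0.3). Members, lists and tests were chosen with earlier results of these data known. The text names the 10 genes and, per list, the 3 of highest mean CPM and the 2 of lowest p, with some genes added after their values were seen. No search for genes of a like pattern was made, since 4 libraries are too few.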

Additional observations from a re-analysis of the deposited data

How the results depend on the processing

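Under 12 alternatives 0 of 108 fold changes of the 9 tested genes passed, and 8 had the opposite sign to the reported value, for Chrna1, Chrng, Lrp4 and Agrn. Leaving out 1 library gave log2 fold changes of −0.0153 to 0.0675 for Chrna1, −0.0208 to 0.0385 for Chrng, −0.4304 to 0.1254 for Lrp4, −0.2581 to 0.1668 for Agrn, −0.3972 to −0.0165 for Dok7 and 0.0887 to 0.2 for Rapsn, and without GDF10 replicate 1 the first 4 had the opposite sign. With the exon length trend removed it was 0.0459 for Agrn. Without GDF10 replicate 2, 3 of the 9 genes had an unadjusted p under 0.05, Rapsn, Lrp4 and Agrn (smallest adjusted p = 0.183), against 15.1% of all genes in that fit, where the lone GDF10 library is assumed to vary like the vehicle pair. The cause was not tested. Over all genes, 25 passed as reported, 65 with DESeq2, 11 with limma-voom and 9 with dispersions not robust. Leaving out 1 library gave 27 to 224 calls over all genes (44 without vehicle replicate 2, 112 without GDF10 replicate 1, 224 without GDF10 replicate 2) and 0 to 6 among the list genes. With the replicate block 23 genes passed and 0 of the 9. In that fit 8.51% of genes had an unadjusted p under 0.05 by edgeR, against 5.94% without the block. Deviations of same-numbered libraries had a correlation of 0.09 over 15467 genes, which does not exclude that the numbers pair them. The labels name no pairing, and the reported fit treated the libraries as unpaired. Chrne, with 4 counts over all libraries, was too low for a test.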

Other observations

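Some genes of the mature postsynaptic side had counts at or near 0 in these libraries. Dmd, which encodes dystrophin, had 0 counts in all 4 libraries, where 3 counts would be 0.0843 to 0.101 CPM. The labels do not name the counting tool or its annotation, so it is not known whether reads of Dmd could be counted. Utrn, encoding the dystrophin relative utrophin, had 5005 and 4852 counts in vehicle replicates 1 and 2. It had 2996 and 5042 counts in GDF10 replicates 1 and 2. In CPM it stood at 140, 164, 100 and 145 in this order, so the groups overlapped (log2 fold change −0.31, edgeR adjusted p = 0.8485). Scn4a, the gene of the voltage-gated sodium channel of muscle, had 6, 8, 3 and 0 counts in the same order. Ache, encoding the enzyme that splits acetylcholine, had 10, 14, 13 and 8 counts, and Colq, encoding the collagen tail that anchors it, 2, 0, 4 and 6. Col13a1, a synaptic collagen gene, and Erbb4, a neuregulin receptor gene, had 0 in all 4 libraries, whereas the neuregulin receptor genes Erbb2 and Erbb3 had 1942 to 2594 and 169 to 219 counts. These genes were singled out after their values were seen.

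Dag1, which encodes dystroglycan, a matrix receptor that binds agrin and laminin, stood at 339 and 243 CPM in vehicle replicates 1 and 2 and at 335 and 266 CPM in GDF10 replicates 1 and 2. The groups overlapped, and the spread within each group was wider than the difference between them (log2 fold change 0.05, edgeR adjusted p = 0.981). In both groups replicate 1 was the higher library. With 2 libraries per group such a match can arise without any pairing, and the share of all genes showing it was not counted. Over 15467 genes the deviations of same-numbered libraries had a correlation of 0.09. Dag1 was singled out after its values were seen.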
